A study of Bos taurus with 15 samples.

Results

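The genes described here encode the constitutive proteasome of bovine skeletal muscle: the 7 alpha and 7 beta subunits of the barrel-shaped core, the 6 ATPases and 11 other subunits of the cap that sits on it, and 3 chaperones (PSMD5, PSMD9 and PSMD10) that carry subunit names but help to assemble the base of the cap. They were chosen by name, not by their values here, and the interferon-induced subunits and the cap subunits ADRM1 and SEM1 are not among them. All 34 were found on the array, out of 15233 genes tested. Each gene was represented by its brightest probe. Of these 34 probes, 17 were named by the gene symbol in the array annotation and 1 (PSMD12) by its description there. A gene identifier named 10 and an accession 6, each looked up in a reference list of genes. The PSMA7 probe was among these 6, and the array annotation describes it as PSMA8. A dimmer probe of PSMD12 was named by a gene identifier.

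The proteasome degrades proteins that have been tagged with ubiquitin chains. The cap binds the chain, removes it, unfolds the protein with its ring of ATPases and threads it through a gate formed by the alpha ring into the chamber of the core, where 3 of the beta subunits (PSMB5, PSMB6 and PSMB7) cut the chain. In skeletal muscle this pathway degrades much of the contractile apparatus during wasting, and glucocorticoids are known to promote it.

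Total RNA of biceps brachii was measured in 15 cattle on 1-colour Agilent arrays, with 1 array per animal. The 8 treated animals had received prednisolone, a synthetic glucocorticoid, orally at 30 mg per head each day over 35 days, and the 7 other animals were labelled as controls. Animals are named here by group and label number, so that C20 is a control and P31 a treated animal. The controls' RNA came from an RNeasy Mini extraction and that of the treated group from TRIzol with RNeasy MinElute cleanup, so that treatment and extraction cannot be told apart. The protocol text of the control samples mentions Finaplix, Revalor and dexamethasone, but does not state that any of these 7 animals received them. It is therefore not clear whether controls and treated animals come from 1 trial, and a difference between trials cannot be told apart from the treatment in any value below. Breed, age and sex of the animals are not given in the sources used here.

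Between 72.1% and 87.4% of spots gave a value on an array. Skeletal muscle markers were bright on all arrays: the mean log2 intensity of 7 of the 8 listed genes lay between 16.96 and 17.56 in controls and between 16.74 and 17.62 in treated animals. Transcripts of other tissues were present as well. The mean of 6 of 11 germ cell markers reached 12.95 in C20 and 12.24 in P31, against a median of 10.3 in controls and 6.67 in treated animals. PRM1, which encodes the sperm protamine, measured 17.84 in C20 and 17.48 in P31, and 2.25 in the treated animal with the lowest value. The mean of 6 of 11 thymocyte markers was highest in C17, at 11.39 against a control median of 6.12. In tissue RNA, fewer cells of a type and less RNA per cell cannot be told apart.

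All values below are log2 intensities after each array was shifted to a common 75th percentile. A difference is treated minus control on that scale, so that 1 is a doubling. Levels of different genes are not compared, since each probe has its own brightness. All 34 proteasome genes had a value on all 15 arrays, none was saturated on a treated array, and 33 were well above background on all 8 treated arrays. PSMB1, a non-catalytic beta subunit, was well above background on 7 of them and was measured at 3.90 to 5.03 in controls and 3.94 to 5.03 in treated animals.

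None of the 34 genes passed the test for a difference between the groups (limma, Benjamini-Hochberg adjusted p of 0.993 or above), and 0% of all genes tested were called by that rule. At an unadjusted p under 0.05, limma called 0 of the 34 and 3.21% of all genes. The difference was positive for 19 of the 34 (55.9%) and negative for 15, against 52.1% positive and 47.9% negative over all genes. The median difference of the 34 was 0.015, beside 0.010 over all genes. The single differences ran from -0.26 for PSMC6 to 0.21 for PSMA4. In 0 of the 34 did the groups fail to overlap, a pattern found in 0.223% of all genes.

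The width of the intervals sets the size of difference that these arrays leave possible. For all 34 genes the 95% confidence interval lay inside a 2-fold change in either direction, which was so for 72.9% of all genes and for 90.5% of the brighter genes, those that cleared background on each of the 8 treated arrays. For 28 of the 34 (82.4%) it lay within 0.5 log2 units of no difference, compared with 36.0% of all genes and 50.9% of the brighter ones. The widest reach was 0.62 log2 units, for the upper limit of PSMA4. The median SD between animals within groups was 0.21 for the 34 genes, 0.41 for all genes and 0.34 for the brighter ones. A p that misses the threshold does not show that the groups had equal levels.

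**Figure D1:**
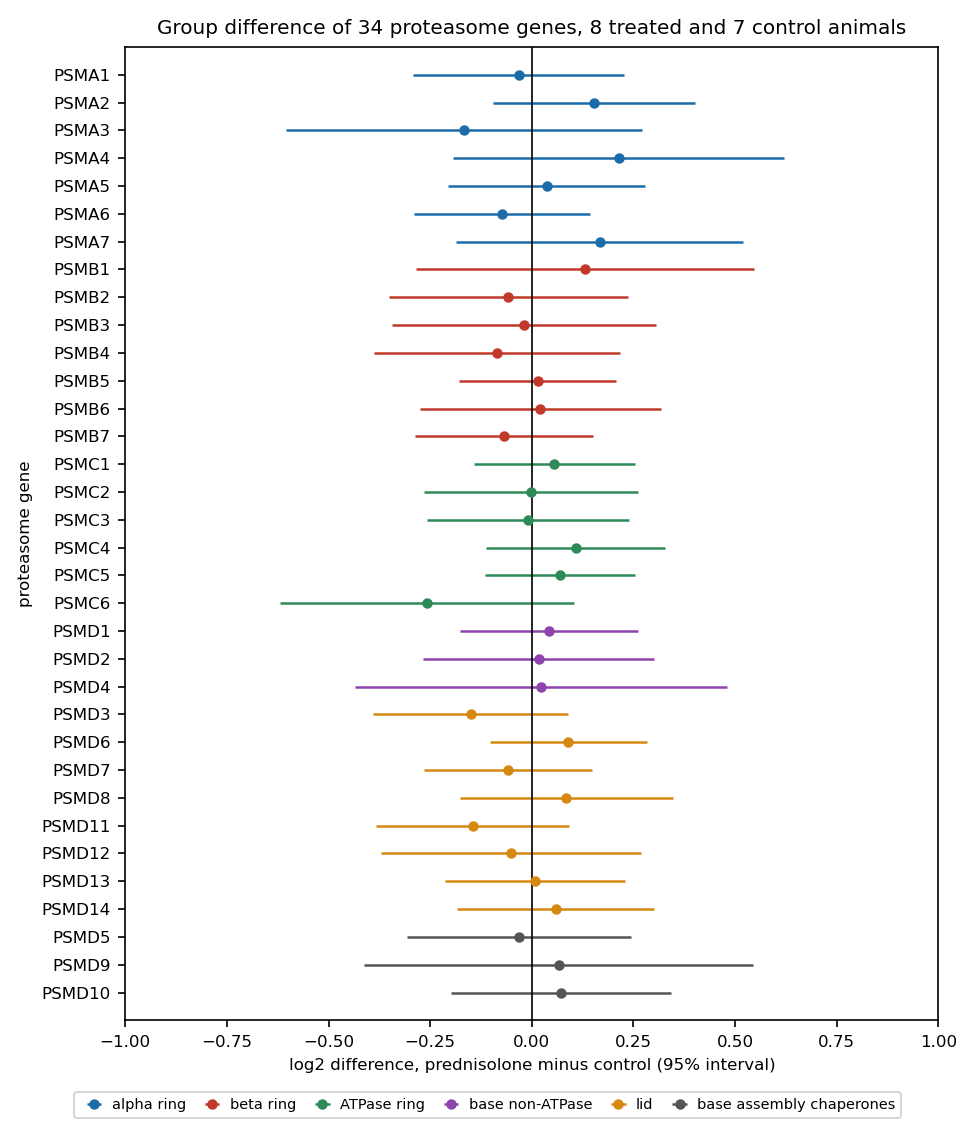
Difference in log2 intensity (x axis, treated minus control, 8 and 7 animals) for each of the 34 proteasome genes (y axis), coloured by subcomplex; points are estimates and bars are 95% confidence intervals from limma. All 34 bars cross zero and end inside a 2-fold change, from -0.26 for PSMC6 to 0.21 for PSMA4 at their centres.

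The alpha ring, whose tails form the gate of the core, had 4 positive and 3 negative differences with a median of 0.036. PSMA2 measured 10.14, 10.46 and 10.96 (lowest, median and highest) in controls and 10.47, 10.61 and 10.76 in treated animals. Each of the 8 treated animals exceeded the control median, but C24, with 10.96, was above them all, so that the groups overlapped. The difference was 0.15 (95% interval -0.10 to 0.40, limma adjusted p = 0.993, 0.209 unadjusted). PSMA3 spread most in this ring, from 11.38 in C20 to 12.64 in C24 among controls and from 11.27 in P29 to 12.16 in P25 among treated animals, a difference of -0.17. PSMA4 had a difference of 0.21, which was -0.0035 with the germ cell score as a covariate. PSMA7 had 0.17 by its brighter probe, -0.18 by its other probe and -0.0071 by the mean of both. The differences of PSMA1, PSMA5 and PSMA6 were -0.03, 0.04 and -0.07.

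The beta ring, which holds the cutting sites, had 3 positive and 4 negative differences with a median of -0.02. PSMB5, the chymotrypsin-like subunit and the main target of proteasome inhibitors, measured 14.34, 14.46 and 14.63 in controls and 14.31, 14.44 and 14.74 in treated animals. The groups covered nearly the same range, and the difference was 0.01 (95% interval -0.18 to 0.21). PSMB6, the caspase-like subunit, measured 14.19, 14.45 and 14.69 in controls and 14.12, 14.43 and 14.91 in treated animals. Its treated values lay on both sides of the controls, with P28 highest and P32 lowest, and the difference was 0.02 (95% interval -0.28 to 0.32). PSMB7, the trypsin-like subunit, measured 15.15, 15.44 and 15.65 in controls and 15.10, 15.38 and 15.44 in treated animals. None of the 8 treated animals exceeded the control median, P27 and P28 lay only just under it, C18 and C20 were lower than most treated animals, and the difference was -0.07 (95% interval -0.29 to 0.15).

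Among the non-catalytic beta subunits, PSMB3 measured 13.06, 13.51 and 14.10 in controls and 13.11, 13.57 and 13.76 in treated animals. C17 was highest and C18 lowest of all animals, and the difference was -0.02 (95% interval -0.34 to 0.30). PSMB1, PSMB2 and PSMB4 had differences of 0.13, -0.06 and -0.09.

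The ATPase ring, the unfolding motor of the cap, had 3 positive and 3 negative differences with a median of 0.027. PSMC6 had the smallest p of the 34 genes. It measured 9.68, 10.22 and 10.85 in controls and 9.82, 10.03 and 10.27 in treated animals. Of the 8 treated animals, 7 lay below the control median, and C24, C17 and C23 were above all treated animals, while C20 was below all of them. The difference was -0.26 (95% interval -0.62 to 0.10, limma adjusted p = 0.993, 0.150 unadjusted). Without C20 it was -0.36 and without C24 it was -0.17, with neither passing the adjusted test. PSMC5, which had the smallest spread of all 34 genes (SD 0.11 within groups), measured 15.11, 15.30 and 15.46 in controls and 15.29, 15.41 and 15.50 in treated animals. Of the treated animals 7 lay above the control median, within the control range apart from P28 and P30, and the difference was 0.07 (95% interval -0.11 to 0.25). PSMC1 to PSMC4 had differences of 0.06, -0.002, -0.01 and 0.11.

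The 3 non-ATPase subunits of the base are the large scaffolds PSMD1 and PSMD2 (the dock for ubiquitin-binding shuttle proteins) and the ubiquitin receptor PSMD4. Their differences were 0.04, 0.02 and 0.02. PSMD2 measured 14.79, 15.10 and 15.45 in controls and 14.88, 15.07 and 15.49 in treated animals. P29 and C18 were highest and C24 lowest, so that neither group stood out (95% interval -0.27 to 0.30). PSMD4 measured 13.28, 14.22 and 14.37 in controls and 13.13, 14.17 and 14.50 in treated animals. C20 and P26 were about 1 log2 unit below their group's median, and the 95% interval was wide, from -0.43 to 0.48.

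The lid, which removes ubiquitin chains through PSMD14, had 4 positive and 4 negative differences with a median of -0.02. PSMD3, a scaffold subunit of the lid, measured 14.27, 14.56 and 14.85 in controls and 14.03, 14.45 and 14.58 in treated animals. The difference was -0.15 (95% interval -0.39 to 0.09, limma adjusted p = 0.993, 0.203 unadjusted). P26 was the lowest animal and C21 the highest, and 6 of the 8 treated animals lay below the control median. PSMD11, which holds the lid to the core and the ATPase ring, measured 13.68, 13.78 and 14.21 in controls and 13.36, 13.78 and 13.86 in treated animals. C18, C21 and C23 lay above all treated animals and P28 and P29 below all controls, the group medians were equal to 2 decimals, and the difference of the means was -0.15 (95% interval -0.38 to 0.09, limma adjusted p = 0.993, 0.210 unadjusted). PSMD6, another lid scaffold and among the least variable genes (SD 0.12), measured 12.33, 12.41 and 12.62 in controls and 12.27, 12.53 and 12.65 in treated animals. Of the treated animals 6 lay above the control median, and the difference was 0.09 (95% interval -0.10 to 0.28). PSMD14 itself had a difference of 0.06, its structural partner PSMD7 of -0.06, and PSMD8, PSMD12 and PSMD13 of 0.08, -0.05 and 0.01.

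Of the base chaperones, PSMD9 was the most variable of all 34 genes (SD 0.44). It measured 7.21, 7.84 and 8.32 in controls and 6.85, 8.00 and 8.57 in treated animals. C20 and P31 were the lowest animals of their groups, and the difference was 0.07 (95% interval -0.41 to 0.54). PSMD5 and PSMD10 had differences of -0.03 and 0.07.

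Genes that work with the proteasome were described from lists outside the 34. Counts of positive and negative differences in these lists were not tested, and 52.1% of all genes had a positive difference. Of the 5 specialised core subunits, 4 had a negative difference and 0 passed the adjusted test. PSMA8, with a difference of 0.0017, was well above background on 0 of the 8 treated arrays. PSMB11, with -0.20, was so on 7 and had a value in 6 controls. PSMB8, the interferon-induced counterpart of PSMB5, measured 8.87, 9.78 and 10.56 in controls and 8.56, 9.17 and 10.07 in treated animals. The groups overlapped, with 7 of 8 treated animals below the control median, and the difference was -0.56 (95% interval -1.12 to -0.0051, limma adjusted p = 0.993, 0.0482 unadjusted). PSMB9, the counterpart of PSMB6, had a difference of -0.38. Of the activators PSME1 to PSME4 and the inhibitor PSMF1, 2 of 5 were positive, with 0.18 for PSMF1 and -0.09 for PSME2. Of 5 assembly factors measured, 2 were positive, with -0.09 for both PSMG1 and PAAF1.

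Of 12 proteasome-bound enzymes and shuttles, 9 were positive and 0 passed the adjusted test. UCHL5, a deubiquitinating enzyme bound to the cap, measured 10.57, 10.71 and 11.37 in controls and 10.88, 11.20 and 11.49 in treated animals. Every treated animal lay above the control median, C24 reached into their range, and the difference was 0.31 (95% interval 0.005 to 0.62, limma adjusted p = 0.993, 0.0468 unadjusted). The shuttle RAD23B had a difference of 0.18. Of 9 genes of transcription control 7 were positive, among them NFYC (0.21), NFE2L2 (0.19) and NFE2L1 (0.02), which encodes the factor that raises proteasome genes when proteasome activity is short. The largest difference of this list was -0.62 for NFE2L3, which was well above background on 1 of the 8 treated arrays. The smallest unadjusted limma p of the list was 0.221, and 0 passed the adjusted test. All 3 measured ubiquitin genes were positive, with 0.20 for UBB and 0.38 for RPS27A, and 0 passed the adjusted test. The cap subunits ADRM1 and SEM1 were not well above background on any of the 8 treated arrays and are not read here.

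Subunits of 1 complex can vary together from animal to animal even where the groups do not differ. For this the mean of its own group was subtracted from each animal's value, and the deviations were correlated over the 15 animals for each pair of genes. Over the 561 pairs of proteasome genes the median Pearson r was 0.285, and 25.1% of pairs had an r over 0.5. Over all pairs of genes with values on all arrays the median was 0.005, and 8.64% of pairs had an r over 0.5. The 9584 genes that cleared background on each treated array gave a median of 0.012 and 9.22%. With the values as deposited the proteasome genes had a median of 0.121 and 14.3% of pairs over 0.5, beside -0.005 and 7.82% for all genes. After quantile normalization they were closer to the background, with 0.220 and 20.9% beside 0.161 and 16.3%. These are descriptions, since pairs share the same arrays, and no test of the list as a whole was made.

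Animals in which many of the 34 genes deviated in the same direction are seen in the deviations themselves. In C20 only 2 of the 34 genes lay above the control mean, in C18 7, and in P31 10 lay above the treated mean. In C23 and C24, 30 and 29 of the 34 genes lay above the control mean, and in P28 26 lay above the treated mean. The median deviation of the 34 genes was -0.27 in C20 and -0.18 in P31, and 0.15 in C24, 0.13 in C17 and 0.12 in P28. C20 and P31 are the animals with the highest germ cell score of their groups.

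**Figure D2:**
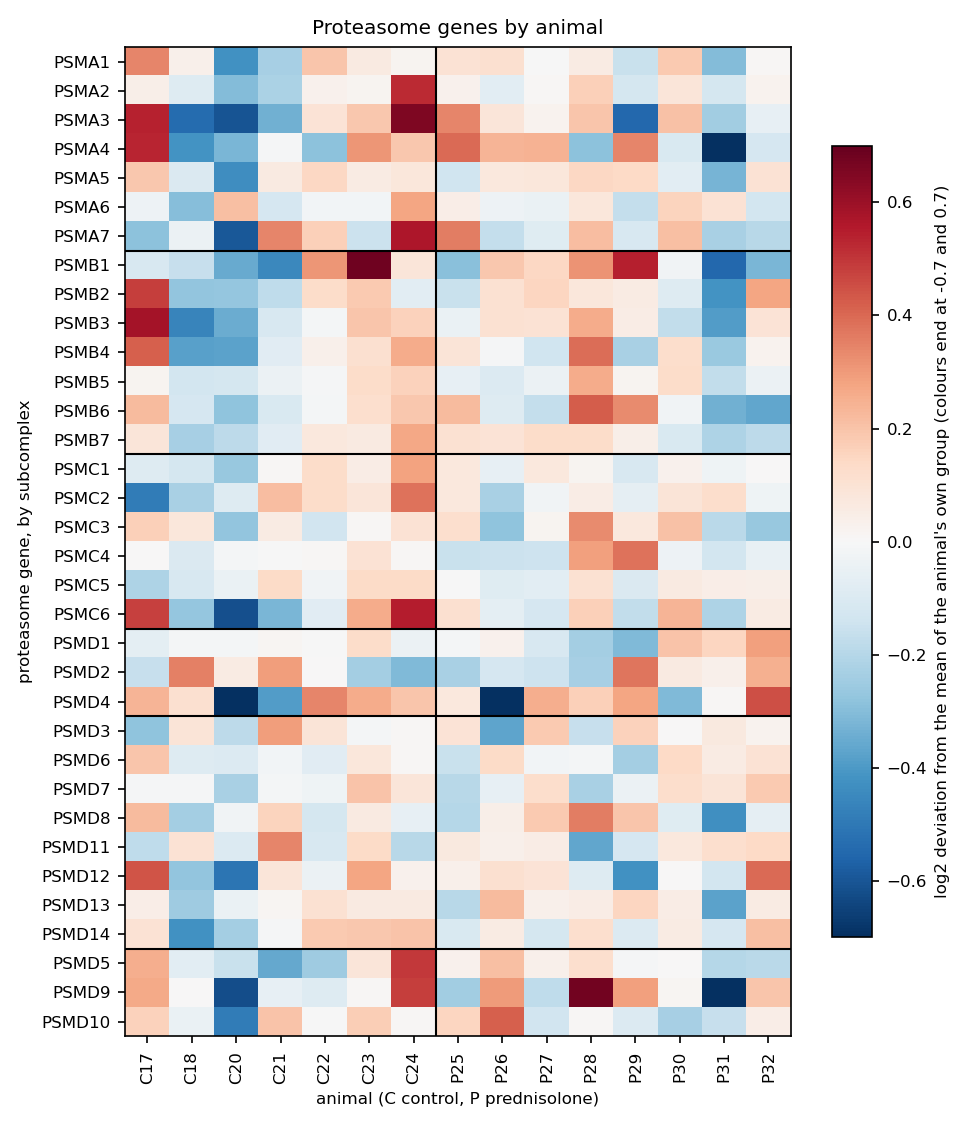
Deviation in log2 intensity from the mean of the animal's own group (colour, ending at -0.7 and 0.7) for the 34 proteasome genes (rows, divided by subcomplex) in 7 control animals (C) and 8 treated animals (P). C20 and P31 are low in most alpha and beta ring genes, C24 and P28 are high, and PSMD1, PSMD2, PSMD3 and PSMD11 do not follow them.

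The subcomplexes were unlike in how closely their genes varied together. The beta ring had the highest median r, 0.598 over 21 pairs, with 76.2% of pairs over 0.5 and none below zero. The alpha ring had a median of 0.448 over 21 pairs, and pairs of an alpha with a beta gene a median of 0.483 over 49. Together the core had a median of 0.494 over 91 pairs, with 47.3% over 0.5. Among the 17 cap genes the median was 0.122 over 136 pairs, with 13.2% over 0.5, and between core and cap genes it was 0.218 over 238 pairs. The value between core and cap was 0.104 without C20 and -0.0047 with the values as deposited.

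Within the cap, the median was 0.169 in the ATPase ring, 0.195 in the lid and -0.05 over the 3 pairs of base non-ATPase genes. These values rest on single animals: the ATPase ring had 0.436 without C17, close to the alpha ring, 0.332 without P29 and 0.292 without C21, the lid had 0.323 without P29, and the base non-ATPase value lay between -0.164 and 0.058. The 3 base chaperones, which had 0.284 among themselves without C20, had a median of 0.470 among themselves, 0.556 with the beta ring and 0.472 with the alpha ring, but 0.199 with the ATPases. Other ring or lid complexes of many subunits gave 0.408 for the 8 genes of the CCT chaperonin and 0.221 for the 9 genes of the COP9 signalosome, a relative of the lid. The differences between these medians were not tested. With the values as deposited the beta ring had a median r of 0.455 and the lid 0.108. The medians were 0.490 and 0.294 after quantile normalization, 0.454 and 0.145 after cyclic loess, and 0.632 and 0.270 with equal medians. On the 8 treated arrays with normexp background correction the order was not the same: the beta ring had 0.717, the lid 0.643 and the alpha ring 0.226.

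**Figure D3:**
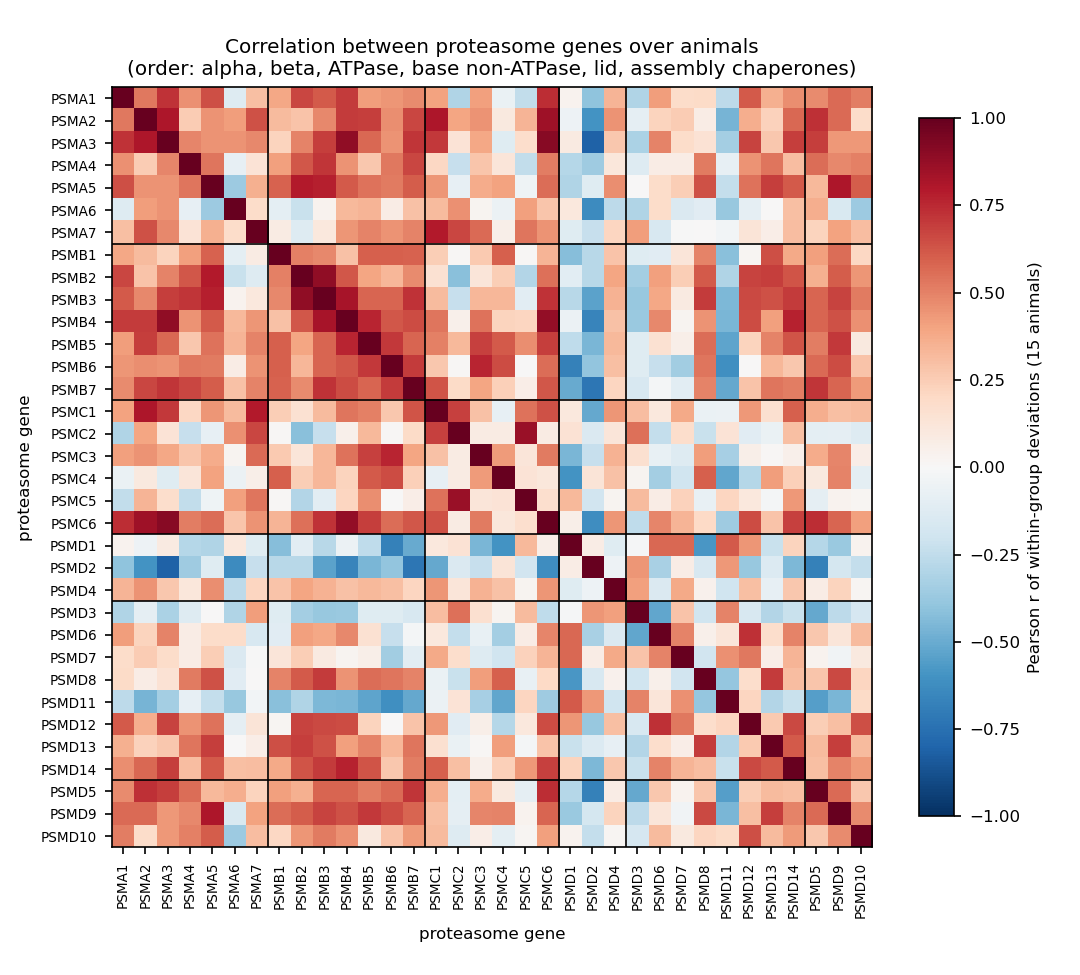
Pearson r of within-group deviations over 15 animals (colour) for each pair of the 34 proteasome genes, with lines between the alpha ring, beta ring, ATPase ring, base non-ATPase, lid and assembly chaperones in that order. The red block of the alpha and beta rings (median r 0.494) is interrupted by PSMA6, and PSMD1, PSMD2, PSMD3 and PSMD11 form pale and blue bands against the core.

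Single pairs were tested by permuting animals within groups, two-sided, with adjustment over all 561 pairs. At an adjusted p under 0.05, 15 pairs were positively and 1 negatively correlated, 2.85% of the pairs. At an unadjusted p under 0.05 there were 136. The share of pairs of all genes that would pass this test is not known here, so neither count has a background beside it. By the size of r alone, 5.70% of the 561 pairs had an r over 0.7. Among pairs of the 9584 genes that cleared background on each treated array, 2.08% did. Of the 16 called pairs 5 joined genes of the same subcomplex (of 91 such pairs) and 11 joined genes of different subcomplexes (of 470).

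The closest pair joined the alpha gene PSMA3 with the ATPase gene PSMC6, with r = 0.914 and Spearman's rho = 0.918 (permutation, adjusted p = 0.0122 for r and 0.00654 for rho). C20 was the lowest control for both genes, at 11.38 and 9.68, and C24 the highest, at 12.64 and 10.85. The r was 0.964 in the 7 controls, 0.768 in the 8 treated animals and 0.918 without the 2 animals farthest from the median of PSMA3. The beta gene PSMB4 correlated with both, with r = 0.887 for PSMA3 and 0.876 for PSMC6 (permutation, adjusted p = 0.018 and 0.0122). The call with PSMA3 was lost without C20 and P31 (adjusted permutation p = 0.0785) and that with PSMC6 after quantile normalization (0.053). PSMA2 correlated with PSMC6 (r = 0.848, adjusted permutation p = 0.0216) and with PSMA3 (r = 0.809, adjusted permutation p = 0.018). Both calls were lost after quantile normalization (adjusted permutation p = 0.136 and 0.122) and with the group difference kept (r = 0.567 and 0.644, adjusted permutation p = 0.274 and 0.119), and the call with PSMA3 also without C20 and P31 (0.136). These were 5 of the 6 pairs among PSMA2, PSMA3, PSMB4 and PSMC6; PSMA2 with PSMB4 was not called.

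A further pair lay within the beta ring: PSMB2 with PSMB3 had r = 0.889 and rho = 0.814 (permutation, adjusted p = 0.0122 for r and 0.0785 for rho). The call was thus lost by rank, and also without C20 and P31 (adjusted permutation p = 0.118). Both genes were highest in C17, at 12.40 and 14.10, and r was 0.918 in controls and 0.860 in treated animals. It was 0.752 without C17 and P31, the animals farthest from the median of PSMB2. Within the ATPase ring PSMC2 and PSMC5 had r = 0.866 and rho = 0.811 (permutation, adjusted p = 0.0216 for r and 0.113 for rho). The call was lost by rank, after quantile normalization (adjusted permutation p = 0.0659) and without C20 and P31 (0.0785). Both were lowest in C17, at 12.81 and 15.11, the animal in which PSMB2, PSMB3 and the thymocyte markers were highest; the part of these markers in the result was not tested. Without C17 and C24 the r of PSMC2 with PSMC5 was 0.768.

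The 3 catalytic genes correlated with each other without passing the adjusted test: r was 0.705 for PSMB5 with PSMB6, 0.585 for PSMB5 with PSMB7 and 0.702 for PSMB6 with PSMB7 (permutation p before adjustment 0.0055, 0.0258 and 0.00414; adjusted 0.0902, 0.142 and 0.0829). PSMB3 and PSMC6 had the highest median r with the other 33 genes, 0.520 and 0.508, and each was in 4 called pairs.

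At the other end, PSMD11 and PSMD2 had a median r of -0.296 and -0.278 with the other genes. PSMD3 (-0.129) and PSMD1 (-0.063) were the only other genes with a median below zero. PSMD2 was in the 1 negative pair called, with PSMA3 (r = -0.811, rho = -0.775, permutation, adjusted p = 0.0325 for r and 0.0972 for rho). The call was lost by rank and with equal medians (adjusted permutation p = 0.0599). P29 had the lowest PSMA3 value, 11.27, and the highest PSMD2 value, 15.49, and C24 the highest PSMA3 value, 12.64, and the lowest PSMD2 value, 14.79. The r was -0.850 in controls, -0.793 in treated animals and -0.706 without these 2 animals. The pair was called in 6 of 15 repeats that each left out 1 animal, in which r lay between -0.873 and -0.770. PSMD2 and PSMD11 had r = 0.437 with each other (permutation p = 0.125, adjusted 0.321).

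**Figure D4:**
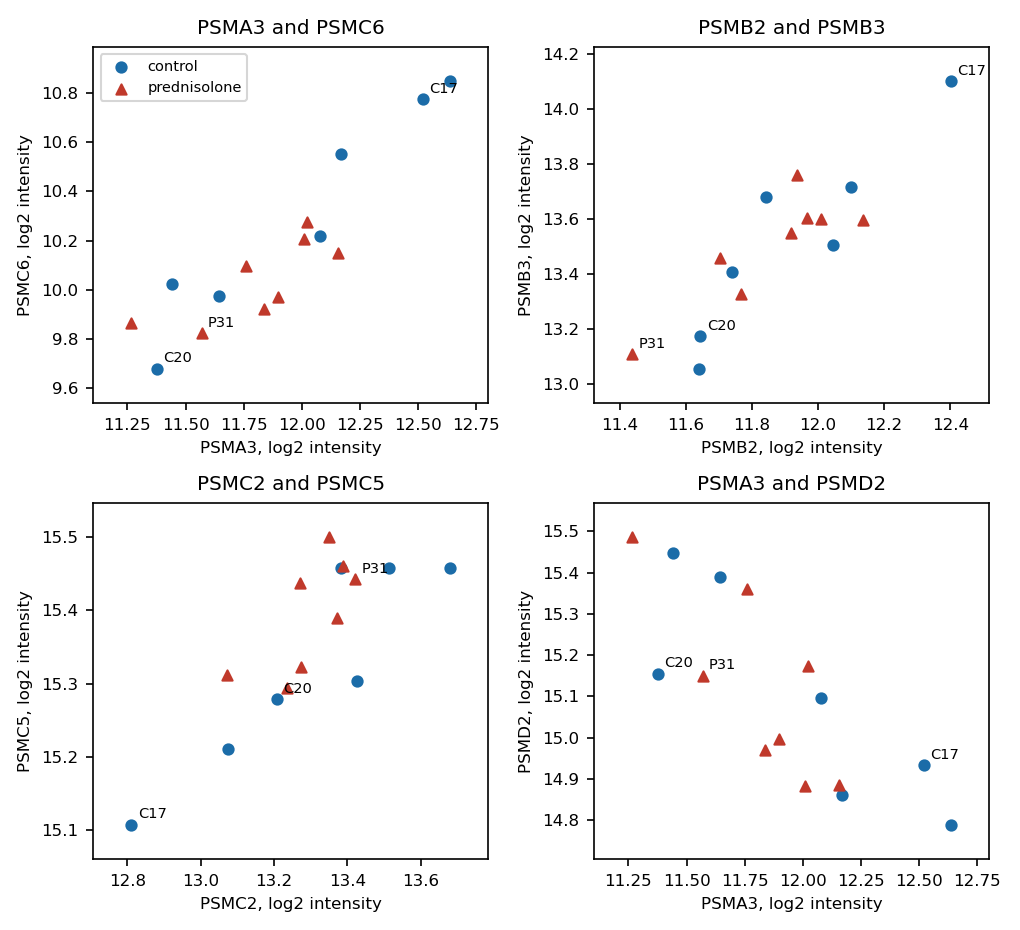
Log2 intensity of both genes of 4 pairs in each animal (circles control, triangles treated; C17, C20 and P31 are named). The points of PSMA3 with PSMC6, PSMB2 with PSMB3 and PSMC2 with PSMC5 lie along rising lines (r = 0.914, 0.889 and 0.866) and those of PSMA3 with PSMD2 along a falling one (r = -0.811), with both groups spread along them.

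How much of this covariation depends on C20 and P31 was measured by leaving both out. The median r of the 34 genes was 0.170 without C20 alone. Without both it was 0.142, with 16.8% of pairs over 0.5, beside 0.007 and 8.72% for all genes. The alpha ring moved to 0.188, the beta ring to 0.455, the base chaperones to 0.115 and core with cap to 0.078, while the lid had 0.196 and the ATPase ring 0.156. There were 5 called pairs instead of 16, among them PSMA3 with PSMC6 (r = 0.891), PSMB4 with PSMC6 (0.841), PSMA2 with PSMC6 (0.793) and PSMA3 with PSMD2 (-0.883). Without C18, 6 pairs were called, and without P29, 25.

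Within the groups, the median r of the 34 genes was 0.456 in the 7 controls, with 46.9% of pairs over 0.5, beside 17.7% for all genes. In the 8 treated animals it was 0.140, with 20.9% beside 13.4%. Between core and cap genes it was 0.419 in controls and 0.026 in treated animals, and in the beta ring 0.781 and 0.516. The difference between the groups was not tested. The SD between animals was larger in controls for 22 of the 34 genes (64.7%), and for 53.7% of all genes. The treated arrays came from 5 slides with at most 2 of them on 1 slide, too few for values within a slide, and the slides of the controls are not known here.

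Each proteasome gene was also set against scores of other tissues, 34 relations per score, with the same permutation test. With the germ cell score 0 relations passed the adjusted test and 4 had an unadjusted p under 0.05. Over all genes the median r with this score was -0.111, with 11.9% of genes over 0.5 and 12.5% under -0.5. The median among the 34 was -0.199. The share of all genes with an unadjusted p under 0.05 is not known here, so the 4 have no background beside them. The 4 were PSMD8 (r = -0.579), PSMD9 (-0.575), PSMA5 (-0.568) and PSMA6 (0.558), each with an adjusted permutation p of 0.260. Spearman's rho was -0.407 for PSMD8, -0.211 for PSMD9, -0.304 for PSMA5 and 0.636 for PSMA6. Without C20 and P31, r was -0.361 for PSMD8, 0.007 for PSMD9, -0.02 for PSMA5 and 0.468 for PSMA6. After a linear fit on the germ cell score was removed from each gene, the median r among the 34 genes was 0.279. With the thymocyte score 0 relations had an unadjusted p under 0.05, with the hepatocyte score 1 and with the share of spots that gave a value 2, and 0 passed the adjusted test in each.

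With NFE2L1, 25 of 34 genes had a positive r, with a median of 0.121, beside 54.6% positive and a median of 0.040 over all genes, and 0 passed the adjusted permutation test. Without C20 and P31 the direction turned, with 13 positive, 21 negative and a median of -0.102. The highest was PSMD7, a lid subunit, with r = 0.626 and an adjusted permutation p of 0.531. The catalytic genes were compared with their induced counterparts in 3 relations: r was 0.139 for PSMB5 with PSMB8, -0.019 for PSMB6 with PSMB9 and 0.307 for PSMB7 with PSMB10 (permutation, adjusted p = 0.939, 0.943 and 0.841).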

How the data were processed

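Per the labels, total RNA of each animal was hybridised to a 1-colour array. The deposited value table holds 1 spot intensity per array on a linear scale, made with R 2.11.1 per the submitters' processing notes; no source used here names how the arrays were scaled to each other. Per the file headers, the scanner intensity and detection flags of the 8 treated arrays came from Feature Extraction 9.5.1.1, and no such output of the controls was used.

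Log2 intensities were shifted per array to a common 75th percentile over the 14324 probes with values on all arrays, spots of a probe were averaged, and 20894 probes with at least 3 values per group were tested with limma 3.58.1 (lmFit, eBayes; R 4.3.3) and adjusted by Benjamini-Hochberg across them. In data simulated with independent genes, 200 probes with values on all arrays were changed. Of these, 62% of changes of log2 1 and 90% of log2 2 were recovered. The real arrays had correlated genes and no called gene, so these shares do not give the power for the proteasome genes. Pairs were tested with 100000 permutations of animals within groups. The number of arrays limits the precision, and p-values measure the spread between animals. Genes given by animal were those with the 4 smallest p, the 3 catalytic genes, and the extremes of median r and of SD (2 at each end); of other lists, the 2 smallest p and NFE2L1. The members, lists and rules were chosen with earlier results of these data known. No sequence or genome position is given. Alternatives were other scalings, probes, names, filters, models and left-out animals.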

Additional observations from a re-analysis of the deposited data

Results flagged for a closer look

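In each gene and group the highest or lowest animal was compared with its nearest neighbour; over 68 such sets 4 (5.88%) had an animal set apart from the rest, and chance gives about 1 in 20. All 4 lay in control animals. PSMA2 was highest in C24, at 10.96 with the next animal at 10.48. PSMD1 was highest in C23, at 13.26 with the next at 13.14. PSMD13 was lowest in C18, at 14.24 with the next at 14.44. PSMD10 was lowest in C20, at 9.16 with the next at 9.61.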

How the results depend on the processing

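In 0 of the alternatives did a proteasome gene pass an adjusted p of 0.05. Over all genes 1 gene was called without C20 and P31, and 0 to 1 when single animals were left out. No paired analysis was possible because the labels give the groups no shared animal numbers. When single animals were left out, the median difference of the proteasome genes lay between -0.03 (without C20) and 0.05 (without C24). With the germ cell score as covariate the median was below that range, between the values of PSMD10 (-0.054) and PSMD8 (-0.052). Positive differences numbered 15 of 34 after quantile normalization, 16 after cyclic loess, 22 with equal medians and 12 with the germ cell score as covariate. With that covariate 11 of the 34 signs turned, the largest being PSMA4 (0.21 to -0.0035), and PSMA7 turned with the mean of both its probes (-0.0071). Of the genes given by animal the sign turned for PSMB5 (quantile -0.0027, loess -0.00547, array weights -0.00111, germ cell covariate -0.00873), PSMD2 (quantile -0.00965, loess -0.00168), PSMD4 (quantile -0.0129, without C20 and P31 -0.102, array weights -0.0817, germ cell covariate -0.0796), PSMB3 (equal medians 0.00228), PSMB6 (germ cell covariate -0.11) and PSMD9 (germ cell covariate -0.22). When single animals were left out, PSMB5 lay between -0.023 and 0.0404, PSMB6 between -0.0398 and 0.0728, PSMB3 between -0.0966 and 0.0775, PSMD2 between -0.0363 and 0.0755, PSMD4 between -0.101 and 0.156, and PSMD9 between -0.0372 and 0.216. The exact Wilcoxon test gave PSMA2 an unadjusted p of 0.0401 and an adjusted p of 1.

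The median r of the 34 genes was 0.121 with the values as deposited, 0.220 after quantile normalization (20.9% of pairs over 0.5, beside a median of 0.161 and 16.3% over all genes), 0.137 after cyclic loess, 0.142 without C20 and P31, 0.140 in treated and 0.456 in control animals, and 0.476 on the treated arrays after normexp background correction. It was 0.170 without C20 and 0.321 without P29. Called pairs numbered 10 with the values as deposited, 6 after quantile normalization, 40 with equal medians, 5 without C20 and P31, 6 by Spearman correlation, 10 with the group difference kept, and 0 in treated animals alone, in controls alone and with the scanner signal of the treated arrays. They numbered 6 without C18 and 25 without P29. In controls alone the animals can be ordered in few ways, which sets a floor under the permutation p. A lone pair at that floor could not pass the adjustment, so the 0 in controls does not show weaker covariation there. Only PSMA3 with PSMC6 was called under all 8 alternatives counted per pair and in all 15 repeats without 1 animal. The subsets hold fewer animals, and the cause of these shifts was not tested.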

Other observations

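Genes outside the proteasome were ranked by the r of their within-group deviations with the mean standardised deviation of the 34 genes. Of 9551 genes compared over 15 animals, the 10 closest were POLR2K, a subunit shared by the RNA polymerases (r = 0.951), RWDD3 (0.949), TRAPPC13 (0.946), C10orf78 (0.932), TEFM, a mitochondrial transcription elongation factor (0.930), GON7 (0.929), PDIK1L (0.923), RMND1 (0.922), FAM162A (0.918) and TMEM80 (0.914). These were picked for their likeness from the same animals, so the values are a description with no test.

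PSMA7 and PSMD12 each had 2 probes, which did not follow each other. For PSMA7 the brighter probe, which the array annotation describes as PSMA8, had a difference of 0.17 and the other -0.18, with r = 0.243 between them. For PSMD12 the brighter probe, named by its description, had a difference of -0.05. The other, named by a gene identifier, had 0.03, with r = -0.192 between them. A value of these 2 genes therefore depends on the probe.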
